A study of Mus musculus with 200 samples.

Results

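Fezf2 was followed through 200 single medullary thymic epithelial cells, as 1 of the 38406 genes of the count table, of which 16848 had no count in any cell. The gene was picked by name, and all of its counts were used: 6222 counts in 169 of the 200 cells. The cells came from female B6xNOD mice aged 5 weeks. All of the mice carried an Aire-GFP transgene, a green fluorescent reporter of Aire expression, and they were wild type (WT) for Aire or lacked it (knockout, KO). Cells had been sorted as CD45-, Ly51-, MHCII+ and GFP+, with high (GFPhi) or low (GFPlo) fluorescence, which gave 61 GFPhi and 39 GFPlo cells of the WT and 48 GFPhi and 52 GFPlo cells of the KO. They were sorted on 2 dates, 72 cells on the first and 128 on the second, and their libraries were made in 12 pools, 6 for each date. The labels name no animal. Each group therefore stands for 1 sample, and differences between groups were not tested. All intervals below are 95% intervals. Those of levels and ratios cover the counting error of sequenced tags only, and those of shares of cells treat the cells as independent. The labels do not say which bases of Aire the knockout lacks, and the KO cells still held counts of the Aire gene (815 per 1000000 counts, CPM, in KO GFPhi), so the Aire count is no check of the genotype labels.

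Medullary thymic epithelial cells display proteins of other tissues to developing T cells, so that T cells reactive to the body's own proteins are removed or diverted to a regulatory fate. Aire, a chromatin-associated protein, is the best known regulator of this ectopic gene expression. Fezf2, a zinc-finger transcription factor first known from the forebrain, where it specifies deep-layer projection neurons, is held to control a different set of antigens in the same cells. Receptors of the TNF family that feed NF-kB signalling, among them RANK (Tnfrsf11a), CD40 and the lymphotoxin beta receptor, drive the maturation of these cells, and Chd4, a chromatin remodeller of the NuRD complex, has been described as a partner of Fezf2.

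Fezf2 (ENSMUSG00000021743.6) lies on the minus strand of chromosome 14, from 12342094 to 12348189 in GRCm38 (mm10). GENCODE M21 gives it 3 transcripts of 5, 6 and 4 exons (Fezf2-201, Fezf2-202 and Fezf2-203), and 0 other genes overlap it. The libraries were primed with oligo-dT and counted per gene, so they do not show which start was used. To place the 2 regulators side by side, the bases just upstream of their annotated starts are given 5′ to 3′ on the coding strand, from RefSeq on GRCm38.p6. The stretch at chr14:12345960-12346115 ends at the base before Fezf2-201 begins. It lies in an intron of Fezf2-202, which begins further upstream, at 12348189. The stretch at chr10:78043611-78043860 ends at the base before the RefSeq start of Aire, at 78043610. Aire-201 and other GENCODE transcripts of Aire begin at 78043580. Capitals mark a TATA box (TATAAA) or a CCAAT box, searched on both strands together with the GC box (GGGCGG).
Fezf2: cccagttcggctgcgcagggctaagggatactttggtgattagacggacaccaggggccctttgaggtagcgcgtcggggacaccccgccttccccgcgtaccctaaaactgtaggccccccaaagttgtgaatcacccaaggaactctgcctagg
Aire: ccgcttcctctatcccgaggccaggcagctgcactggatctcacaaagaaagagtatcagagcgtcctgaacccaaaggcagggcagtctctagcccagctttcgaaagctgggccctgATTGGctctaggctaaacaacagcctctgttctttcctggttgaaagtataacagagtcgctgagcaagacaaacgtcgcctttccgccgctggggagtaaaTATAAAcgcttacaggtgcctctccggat
The Aire stretch holds TATAAA 29 bases upstream of the start and a CCAAT box on the other strand (ATTGG) 131 bases upstream. The Fezf2 stretch of 156 bases holds none of the 3 motifs, is 60.3% G or C and has 9 CpG. Over windows of 250 bases, Fezf2 is 61.2% G or C with 14 CpG, and Aire 53.2% with 11. Of 32851 RefSeq windows of 250 bases upstream of a start, 12.4% hold TATAAA, 33.8% the CCAAT box and 32.7% the GC box. The whole 250-base window of Fezf2 has 1 GC box, outside the stretch printed.

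Most cells of every group contained Fezf2. It was counted in the WT in 55 of 61 GFPhi (90.2%, interval 79.8 to 96.3%) and 29 of 39 GFPlo cells (74.4%, 57.9 to 87.0%), and in the KO in 47 of 48 GFPhi (97.9%, 88.9 to 99.9%) and 38 of 52 GFPlo cells (73.1%, 59 to 84.4%). Of the 21558 genes with any count, 456 (2.12%) were found in as many cells as Fezf2 or more. This rank is not corrected for transcript length or level.

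Depth differed between cells and was evened out by drawing 13300 counts from each cell. This left out 13 GFPhi and 10 GFPlo cells of the WT and 8 and 9 of the KO, which had fewer counts. Since a draw is random, it was repeated 100 times. The median share of cells with Fezf2 over the draws was 90.6% (lowest 81.2%, highest 95.8%) of 48 GFPhi and 62.1% (51.7 to 75.9%) of 29 GFPlo cells of the WT, and 92.5% (87.5 to 100%) of 40 GFPhi and 67.4% (62.8 to 76.7%) of 43 GFPlo cells of the KO. Over both dates the GFPhi share lay above the GFPlo share in all draws in both genotypes, and it did so as counted. As counted on the first date, the GFPhi and GFPlo shares were 91.3% and 88.9% in WT and 100% and 95.5% in KO. On the second they were 89.5% and 61.9% in WT and 97.4% and 56.7% in KO. The ranges of the draws of GFPhi and GFPlo overlapped in both genotypes on the first date and in neither on the second. The 31 cells with no Fezf2 count had a median total of 14183 counts, against 35004 in the 169 others. A count of 0 at that depth allows a level of up to 212 CPM, with the limit of 3 counts that a 0 allows, and the limits of the 31 cells ran from 17.2 to 1235 CPM. Absence of the transcript from these cells was therefore not detectable at this depth. Of the 31, 26 were sorted on the second date.

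The level of Fezf2, its CPM computed on counts summed over a group, followed the order WT GFPhi, KO GFPhi, KO GFPlo, WT GFPlo over both dates. WT GFPhi stood at 859 CPM (828 to 890), KO GFPhi at 532 (506 to 559), KO GFPlo at 454 (424 to 486) and WT GFPlo at 355 (331 to 380). Per cell, WT GFPhi ran from 0 to 3405 CPM with a median of 554. KO GFPhi ran from 0 to 1474 with a median of 474. KO GFPlo ran from 0 to 3543 with a median of 181, and WT GFPlo from 0 to 4169 with a median of 55.1. All 4 ranges overlap, and the GFPlo groups reached as high as the GFPhi groups in single cells.

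**Figure D1:**
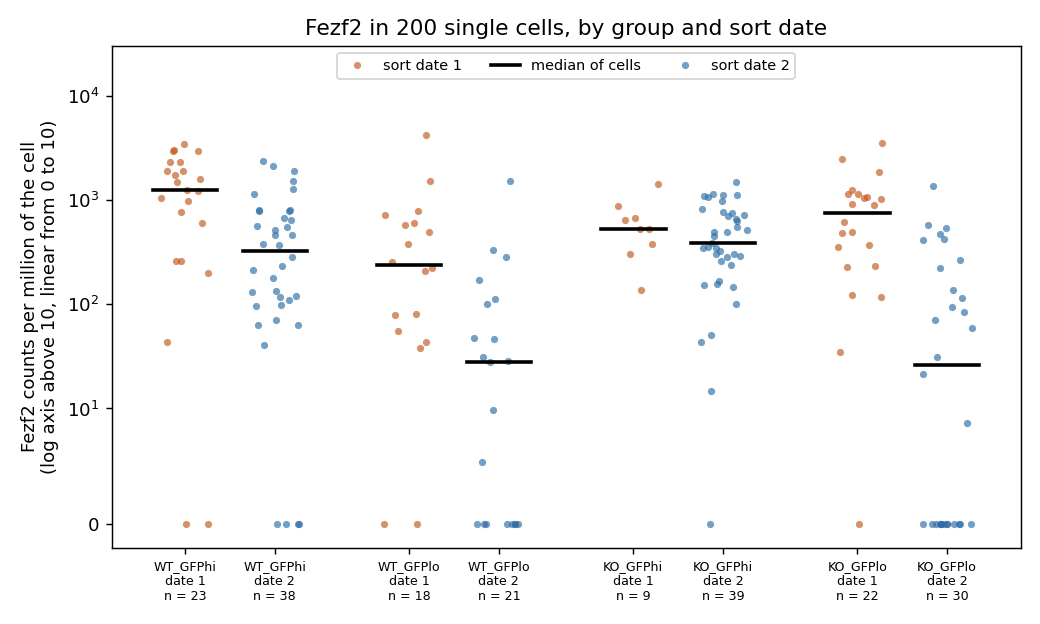
Each point is 1 cell and gives its Fezf2 CPM on an axis that is logarithmic above 10 and linear from 0 to 10, by group and sort date, with black bars at the median of the cells. Medians on the first date were 1252, 237, 523 and 754 from the leftmost group to the rightmost, and on the second date 325, 27.8, 391 and 26.

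A few cells carried much of the signal in the GFPlo groups. The cell with the most counts held 35.2% of all Fezf2 counts in WT GFPlo, 26.6% in KO GFPlo, 22.1% in KO GFPhi and 11.3% in WT GFPhi. The cells that together reached 50% of the counts numbered 2 in WT GFPlo, 4 in KO GFPlo, 6 in KO GFPhi and 6 in WT GFPhi. KO GFPhi cells were the most alike. Their coefficient of variation (SD over mean of the CPM per cell) was 0.706, against 1.06 in WT GFPhi, 1.48 in KO GFPlo and 2.21 in WT GFPlo. By date it was 0.612 in KO GFPhi against 0.761 in WT GFPhi on the first and 0.736 against 1.15 on the second. With each cell thinned to 13300 counts, the median over 100 draws was 0.754 (0.628 to 0.857) in KO GFPhi, 1.04 (0.938 to 1.12) in WT GFPhi, 1.45 (1.26 to 1.66) in KO GFPlo and 1.5 (1.28 to 1.76) in WT GFPlo. KO GFPhi was below WT GFPhi in 100 of 100 draws over both dates, but on the first date, with 7 KO GFPhi cells deep enough, in 50 of 100. These coefficients pool cells of 2 primer kinds, ls and umi, described below. WT GFPhi stood at 1029 CPM with ls and 159 with umi primers, and KO GFPhi at 541 and 500. The part of primer kind in the spread was not tested.

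Fezf2 differed between the sort dates by as much as it did between the groups. In WT GFPhi the level was 1534 CPM (1464 to 1607) on the first date and 516 (487 to 546) on the second. WT GFPlo went from 645 to 85.3, KO GFPhi from 776 to 436 and KO GFPlo from 922 to 183. The first date was thus higher 2.97-fold (2.76 to 3.20), 7.56-fold (6.13 to 9.42), 1.78-fold (1.61 to 1.97) and 5.04-fold (4.30 to 5.91) in the order named. A rise of at least 1.5-fold on the first date was seen in 34.3%, 38.3%, 28.2% and 33.3% of all genes compared in these groups, and a rise of that size in each of the 4 groups in 3.61% of 7212 genes, Fezf2 among them. Aire, by contrast, was 1.29-fold higher on the first date in WT GFPhi (1.17 to 1.42) and 1.09-fold (0.998 to 1.19) in KO GFPhi, but 12.1-fold (8.92 to 16.8) in WT GFPlo and 4.52-fold (3.76 to 5.45) in KO GFPlo. Forward scatter also differed by date, with group medians from 139180 to 154268 on the first and from 174859 to 209449 on the second, in arbitrary units. The median GFP of GFPlo cells was 5960 (WT) and 8337 (KO) on the first date and 2290 and 2515 on the second. The part of these differences in the Fezf2 levels was not tested. The comparisons of Fezf2 between groups below are given by date, and values of other genes are over both dates unless a date is named.

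High GFP went with more Fezf2 in the wild type. WT GFPhi exceeded WT GFPlo 2.42-fold (2.24 to 2.62) over both dates, 2.38-fold (2.18 to 2.60) on the first date and 6.05-fold (4.93 to 7.50) on the second. Over both dates 34% of 13544 genes compared rose by at least 1.5-fold in the same contrast, and 21.5% lay above Fezf2, so the ratio itself is not unusual for a gene in these summed cells. The direction was the same in all 11 library pools that held both kinds of cell. Pool values of WT GFPhi ran from 891 to 1826 CPM on the first date and from 261 to 915 on the second, and those of WT GFPlo from 65.4 to 1068 and from 0 to 95.9. The pools are small, with 1 to 8 WT GFPhi and 1 to 6 WT GFPlo cells each. Leaving out 1 pool at a time gave log2 ratios of 1.10 to 1.67, and leaving out the cell with the most Fezf2 counts gave 1.15.

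In the knockout the same contrast depended on the date. KO GFPhi stood 1.17-fold (1.08 to 1.28) above KO GFPlo over both dates, but at a ratio of 0.841 (0.753 to 0.940) on the first date and 2.38 (2.05 to 2.78) on the second. GFPhi was higher in 1 of 6 pools on the first date and in 6 of 6 on the second. Genes that rose by at least 1.5-fold over both dates made up 33.1% of 12420. Leaving out the cell with the most Fezf2 counts brought the log2 ratio from 0.23 to -0.0064, leaving out pool 5 raised it to 0.75, and leaving out pool 6 or pool 11 lowered it to 0.06 or 0.07.

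**Figure D2:**
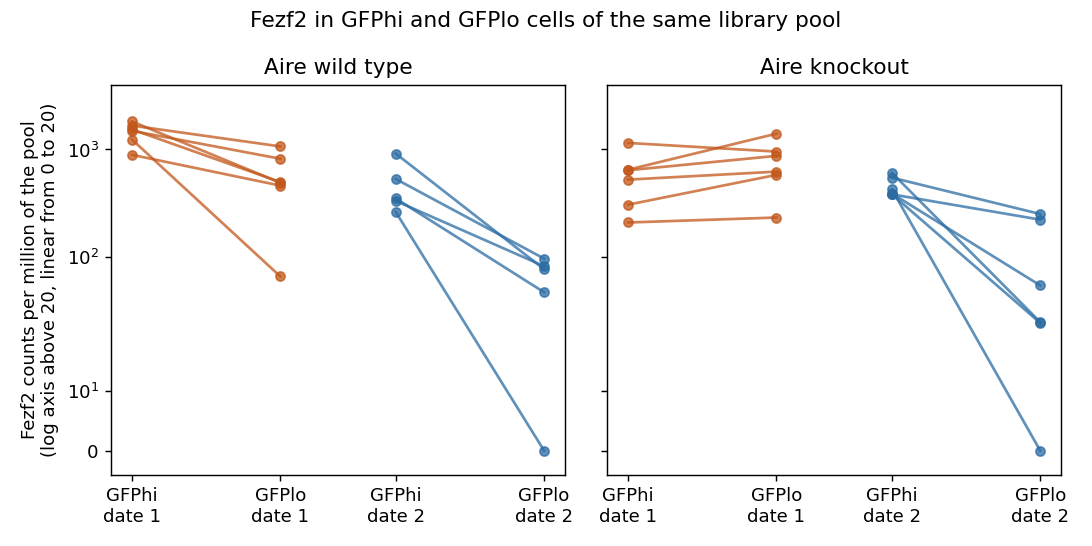
Each line joins the Fezf2 CPM of GFPhi and GFPlo cells of the same library pool, in wild type (left) and knockout (right), by sort date, on an axis that is logarithmic above 20. All 11 wild-type lines fall from GFPhi to GFPlo, whereas in the knockout 1 of 6 falls on the first date and 6 of 6 on the second.

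Against the wild type, KO cells had less Fezf2 in the GFPhi gate and more in the GFPlo gate. In GFPhi cells the ratio of KO to WT was 0.620 (0.583 to 0.659) over both dates, 0.505 (0.462 to 0.553) on the first and 0.845 (0.775 to 0.921) on the second. KO was lower in 6 of 6 pools on the first date and in 3 of 6 on the second. A fall of at least 1.5-fold over both dates was seen in 35.4% of 13564 genes, and 32.9% of the genes lay below Fezf2. The medians per cell lay closer, at 474 CPM in KO and 554 in WT, and on the second date KO was the higher, at 391 against 325. WT GFPhi held the cells with the highest levels: its upper quartile was 1283, against 723 in KO GFPhi. Its lower quartile of 121 was below the 277 of KO GFPhi. Leaving out pool 5 gave a log2 ratio of -0.44 in place of -0.69, and leaving out pool 12 gave -0.85. Without the cell with the most Fezf2 counts, a KO GFPhi cell with 354 counts, it was -0.93.

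In GFPlo cells the ratio of KO to WT was 1.28 (1.16 to 1.41) over both dates, 1.43 (1.28 to 1.59) on the first and 2.15 (1.68 to 2.75) on the second, against 30.4% of 12347 genes higher by at least 1.5-fold over both dates. KO was higher in 6 of 11 pools. Leaving out pool 5 brought the log2 ratio from 0.36 to -0.09, and leaving out pool 6 raised it to 0.83. Over both dates the sign thus rested on 1 library pool. That pool is of the first date and plays no part in the ratio of 2.15 on the second. The difference between the GFPhi and GFPlo contrasts was itself not tested.

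**Figure D3:**
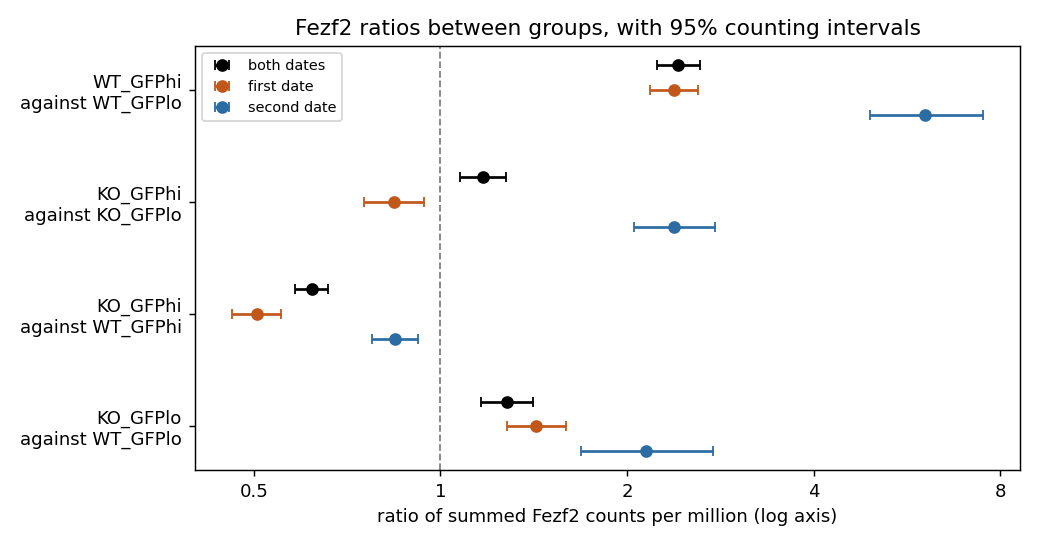
Points are ratios of summed Fezf2 CPM between groups on a logarithmic axis, with 95% counting intervals, over both dates (black) and on each date. The WT GFPhi ratio to WT GFPlo lies above 1 throughout, the KO GFPhi ratio to WT GFPhi below 1 throughout, and the KO GFPhi ratio to KO GFPlo on either side of 1.

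The level also differed by the kind of primer. Primers of a kind called ls were used for 153 cells and those called umi for 47. WT GFPhi stood at 1029 CPM in 47 ls cells and 159 in 14 umi cells, whereas KO GFPhi stood at 541 in 38 ls and 500 in 10 umi cells. The KO to WT log2 ratio in GFPhi was -0.93 with ls primers and 1.65 with umi primers, so its direction held in the larger set only. On the second date alone the umi cells stood at 154 in 10 WT GFPhi and 497 in 9 KO GFPhi cells. WT GFPlo stood at 435 and 61.6, and KO GFPlo at 519 and 200, with ls and umi primers.

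Some of the sorted cells held more leukocyte than epithelial transcripts. Of the epithelial markers, Krt8 was found in 195 and Epcam in 162 of 200 cells, but Krt5 in 92 and Ly6d in 80. The MHC class II gene H2-Aa was found in all 200. Of the thymocyte markers, Ptcra was at 0 and Cd3e was found in 4 cells, but others of the 12 listed were counted. Together the 12 stood at 87.7 CPM in WT GFPhi, 57.9 in WT GFPlo, 53.5 in KO GFPhi and 76.3 in KO GFPlo. In KO GFPhi against WT GFPhi 6 of them had enough counts to compare. Cells with more counts of an 18-gene leukocyte list (Ptprc, Cd79a, Lyz2 and others) than of a 13-gene medullary epithelial list numbered 17 of 61 GFPhi and 8 of 39 GFPlo cells in the WT, and 4 of 48 and 21 of 52 in the KO. They were found in spite of the CD45- gate, and whether they are leukocytes, doublets or epithelial cells with foreign RNA was not tested.

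A smaller share of these cells held Fezf2. It was counted in 32 of the 50 (64.0%, 49.2 to 77.1%) and in 137 of the other 150 (91.3%, 85.6 to 95.3%), at similar median totals of 29573 and 29106.5 counts. Its level was 376 CPM in the first set and 671 in the second. Of the 50, 38 were from the second date, when Fezf2 was lower. By date the shares were 10 of 12 marked and 57 of 60 other cells on the first, and 22 of 38 and 80 of 90 on the second. With a stricter list of 12 leukocyte genes, 29 cells were marked and 16 of them held Fezf2, but in WT GFPhi all 8 marked cells did, against 88.7% of the others. The split was widest in KO GFPlo, where 10 of 21 leukocyte-marked cells held Fezf2 at 64.7 CPM, against 28 of 31 at 786 among the rest. Among cells not marked, Fezf2 was found in 80.6% (62.5 to 92.5%) of 31 WT GFPlo and 90.3% (74.2 to 98.0%) of 31 KO GFPlo cells. Among marked cells it was found in 4 of 8 WT GFPlo (15.7 to 84.3%) and 10 of 21 KO GFPlo cells (25.7 to 70.2%). Of the 21 marked KO GFPlo cells, 15 were from the second date. The intervals of marked and other cells overlapped in WT GFPlo but not in KO GFPlo. They treat the cells as independent and widen with fewer cells, so this is no test of a difference. In KO GFPhi the level was instead higher in marked cells, with 4 marked cells at 937 and 44 others at 511 CPM.

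Without the marked cells the contrast within the knockout changed direction over both dates, from a log2 ratio of 0.23 to -0.62, but on neither date alone. KO GFPhi stood below KO GFPlo, at 776 against 1283 CPM on the first date (ratio 0.605, 0.540 to 0.677, against 0.841 with all cells). On the second it stood at 400 against 375 (1.06, 0.912 to 1.25), against 2.38 with all cells. In the wild type GFPhi remained above GFPlo, 2.35-fold (2.14 to 2.58) on the first date and 4.06-fold (3.26 to 5.10) on the second. KO GFPhi remained below WT GFPhi, at ratios of 0.513 (0.467 to 0.563) and 0.683 (0.615 to 0.759), and KO GFPlo above WT GFPlo, at 1.99 (1.78 to 2.23) and 2.60 (2.03 to 3.36).

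Fezf2 and Aire were found together in most cells. Of the 200 cells, 143 held both, 26 held Fezf2 only, 18 held Aire only and 13 held neither. Fezf2 was present in 88.8% (82.9 to 93.2%) of the 161 cells with Aire and in 66.7% (49.8 to 80.9%) of the 39 cells without it. At an equal depth of 13300 counts the medians over 100 draws were 87.8% (83.2 to 92.0%) of cells with Aire and 56% (43.2 to 66.7%) of cells without it. These pooled shares mix groups and dates that differ in both genes.

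Within groups the picture was uneven. At equal depth, Fezf2 was found in a median of 82.1% (71.4 to 92.3%) of KO GFPlo cells with Aire and 42.9% (29.4 to 56.2%) of those without, and the former was higher in 100 of 100 draws. On the first date these medians were 93.8% and 66.7%, and on the second 62.0% and 38.5%, with the former higher in 100 and in 97 of 100 draws. Few KO GFPlo cells lacked Aire on the first date, when 15 to 16 of 19 held it, and the draws repeat the same cells. In WT GFPlo the medians were 75% (56.2 to 92.9%) and 48.3% (25 to 71.4%), higher with Aire in 96 of 100 draws, but in 43 of 100 on the first date alone (13 cells) and 72 of 100 on the second (16 cells), so the order did not hold on the first date. Almost all GFPhi cells held Aire, 57 of 61 in WT and 43 of 48 in KO as counted, so few were left to compare. Cells with Fezf2 and no Aire count were seen in each group, 3 in WT GFPhi, 9 in WT GFPlo, 5 in KO GFPhi and 9 in KO GFPlo as counted. Among cells with Aire as counted, Fezf2 was found in 91.2% in WT GFPhi, 76.9% in WT GFPlo, 97.7% in KO GFPhi and 82.9% in KO GFPlo.

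**Figure D4:**
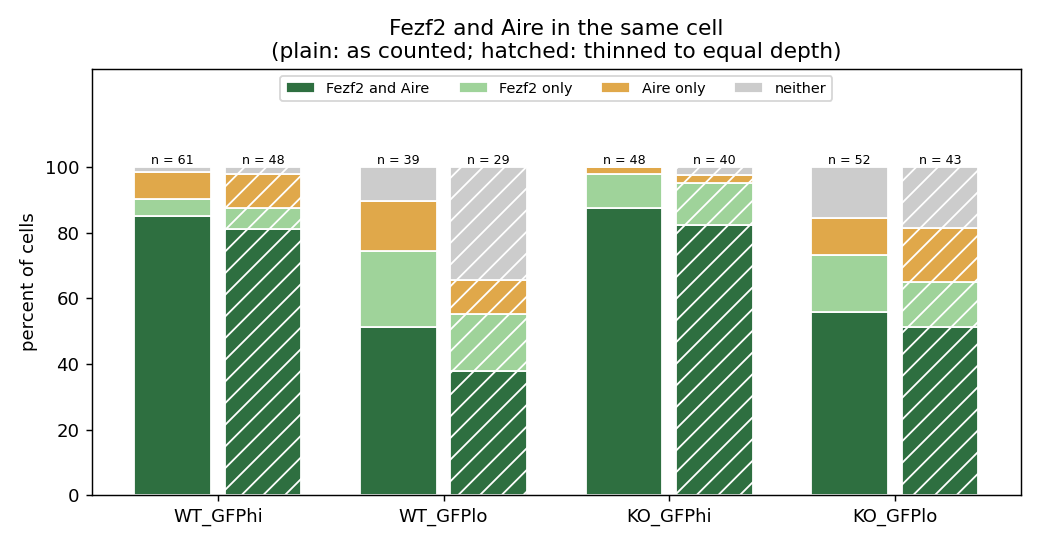
Stacked bars give the percent of cells of each group with counts of Fezf2 and Aire, Fezf2 only, Aire only or neither, as counted (plain) and after 1 draw of 13300 counts from each cell (hatched), with the number of cells above each bar. Cells with both genes are the largest class in every bar, and the class with neither is largest in WT GFPlo after thinning.

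The amounts of both genes per cell were only loosely related. Spearman correlations of CPM, with the cell total removed, were 0.14 in GFPhi (61 cells) and 0.26 in GFPlo (39) of the WT, and 0.07 (48) and 0.52 (52) in the same gates of the KO, with a mean of 0.25. This is a description across cells that share libraries and dates, and it ranked Aire 158th of 5419 genes found in at least 20% of the cells of each group. With the sort date removed too, the mean was 0.14. On the first date alone it was -0.10 and on the second 0.16.

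Over all cells, the genes whose level per cell was most like that of Fezf2, with the same sign in all 4 groups, were led by Krt18, a keratin of simple epithelium. Mean correlations were 0.49 for Krt18, 0.47 for Sgpl1 (the lyase that degrades sphingosine 1-phosphate), 0.44 for Tbata (a gene of thymus, brain and testis), 0.42 for Skint10 and 0.41 for Il11ra1 (a subunit of the interleukin 11 receptor). They were also 0.41 for Cd40lg (the ligand of CD40), 0.41 for Insm1 (a zinc-finger factor of neuroendocrine cells), 0.41 for Ptprq (a receptor phosphatase), 0.40 for Synj2 (a phosphoinositide phosphatase) and 0.40 for Krt8, the keratin that pairs with Krt18. Skint10 and Il11ra1 belong to families of near-identical copies whose counts could be split. Over the 5419 genes the median was 0.01, and the 5th and 95th percentiles were -0.18 and 0.22. A mean of at least 0.3 was reached by 1.27% of genes and one of at most -0.3 by 0.369%.

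These 10 genes were chosen as the highest in these same cells, so the values that follow are no independent check of them. All 10 were above 0 on each date, but Krt8 was at 0.06 on the first and Synj2 at 0.08 on the second. Without leukocyte-marked cells the means ran from 0.24 (Skint10) to 0.42 (Sgpl1), with Krt18 at 0.37. With ls primers only they ran from 0.32 (Cd40lg) to 0.48 (Ptprq), with Krt18 at 0.39. With the sort date removed their means ran from 0.24 (Synj2) to 0.45 (Krt18), all above the 95th percentile of 0.20 computed the same way, and 6 of the 10 were again among the highest 10. Over both dates 9 of the 10 were higher by any amount in KO GFPhi than in WT GFPhi, where Fezf2 was lower, against 51.8% of the 5419 genes, and Cd40lg was the 1 that was lower. On the first date 8 of the 10 were higher, Il11ra1 being the other exception, and on the second 9. Ptprq was highest in KO GFPhi, at 1111 CPM against 409 in WT GFPhi, and Tbata likewise at 1442 against 637, whereas Cd40lg was at 180 in KO GFPhi and 1573 in WT GFPhi.

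At the other end were Stx16 (a syntaxin of Golgi traffic) at -0.46, Ssr1 (a subunit of a protein translocation complex of the endoplasmic reticulum) at -0.40, Cldn18 (a tight-junction protein) at -0.39 and Gimap1 (a GTPase of lymphocytes) at -0.38. On each date 3 of these 4 were below 0. The exception was Cldn18, at 0.03 on the first date. With the sort date removed all 4 lay below the 5th percentile of -0.14. They too were chosen in these same cells, so this is no independent check.

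**Figure D5:**
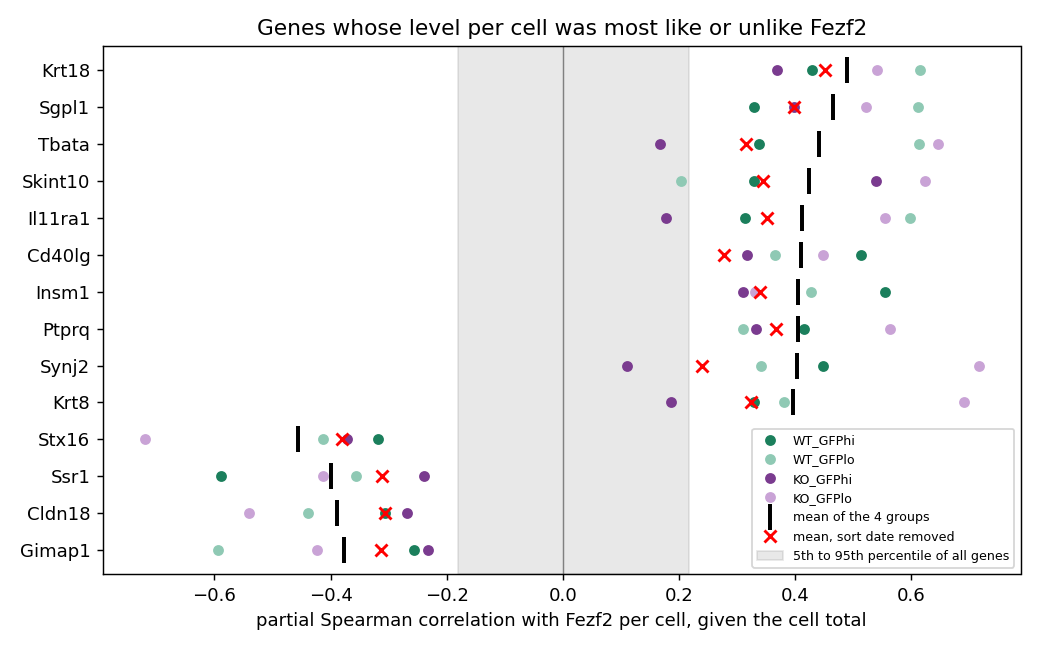
Points are partial Spearman correlations with Fezf2 per cell, given the cell total, in each of the 4 groups for the 10 highest genes and 4 of the 5 lowest; black bars are the mean of the groups and red crosses the mean with the sort date removed too. The grey band spans the 5th to 95th percentile of 5419 genes, and all 14 red crosses lie outside it, for genes chosen in these same cells.

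Antigens attributed to Fezf2 in the literature differed in how many cells held them. Of 10 such genes (Apob, Apoc3, Bhmt, Calb1, Crp, Fabp9, Fcer2a, Krt10, Maoa and Ttr), 2 were found in enough cells to correlate. Maoa, monoamine oxidase A, was counted in 100 cells, 97 of them with Fezf2, and its mean correlation of 0.38 ranked it 14th of 5419 genes. With the sort date removed it was 0.27, on the first date 0.27 and on the second 0.32. Fcer2a, the low-affinity IgE receptor of B cells, was counted in 87 cells, 72 of them with Fezf2, and had a mean correlation of -0.12. Fezf2 itself was found in 84.5% of all cells. The other antigens were found in 34 cells or fewer. Some were seen in cells with Fezf2 only: Bhmt, a liver enzyme of methionine metabolism, in 20 cells, Fabp9, a testis fatty acid binding protein, in 21, and Calb1, a calcium-binding protein, in 18. Others were also seen without it, Krt10 in 4 of 34 cells, Crp in 3 of 23 and Apoc3 in 2 of 28. Genes of other lists were likewise seen with Fezf2 only, such as Csn1s1, attributed to Aire, in 16 cells and Gatad2b of NuRD in 11. Spt1, also attributed to Aire, was seen without Fezf2 in 4 of 20 cells. The share of all genes seen with Fezf2 only was not computed. Depth raises the chance of finding both genes in a cell, and its part was not tested.

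The antigens did not move as a group with Fezf2 between the 4 groups. In KO GFPhi against WT GFPhi, where Fezf2 was lower, 1 of the 7 antigens with enough counts was higher by at least 1.5-fold and 4 were lower, with a median log2 ratio of -1.30 against -0.10 over all genes. The background in this contrast was 28.4% of genes higher and 35.4% lower. In WT GFPhi against WT GFPlo, where Fezf2 was higher, 2 of 9 were higher and 6 lower (34% and 32.6% of all genes), with a median of -1.75. In KO GFPlo against WT GFPlo 3 of 8 were higher and 5 lower (30.4% and 35.4%), with a median of -2.45. In KO GFPhi against KO GFPlo 1 of 5 was higher and 4 were lower (33.1% and 33.2%), with a median of -1.92. Maoa stood at 151, 19, 503 and 99.1 CPM in the GFPhi and GFPlo cells of the WT and then of the KO, and 49.5% of the KO GFPhi counts came from 1 cell. By date it stood at 266 in WT GFPhi and 1539 in KO GFPhi on the first, and at 93 and 94.5 on the second. Apoc3, an apolipoprotein of the liver, stood at 305, 5.31, 2.66 and 29.8, and Fabp9 at 33.7, 72.1, 0.332 and 0.541. Krt10, a keratin of differentiated epidermis, stood at 497 in WT GFPlo, where 1 cell held 93.5% of its counts, and between 13.9 and 53.1 elsewhere.

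Antigens attributed to Aire were compared in the same way. Of 14 such genes, 2 could be correlated: Csn2, beta casein, had a mean of 0.25 with Fezf2 and S100a8, a calcium-binding protein of neutrophils, 0.15. With the sort date removed these were 0.10 and 0.14. In KO GFPhi against WT GFPhi 7 of 9 were lower by at least 1.5-fold and 1 was higher, against 35.4% and 28.4% of all genes. In KO GFPlo against WT GFPlo 6 of 8 were lower and 1 higher (35.4% and 30.4%). There the WT GFPlo cell with most counts held 92.5% of those of Csn1s1 and 66.7% for S100a8. For the other lower genes it held from 30.9% (Csn1s2a) to 41.1% (Pcp4). The part of single cells in these comparisons was not tested. In WT GFPhi against WT GFPlo 6 of 10 were higher and 4 lower (34% and 32.6%). In KO GFPhi against KO GFPlo 4 of 5 were higher and 1 lower (33.1% and 33.2%). S100a8 stood at 1248 CPM in WT GFPhi and 53.1 in KO GFPhi, and was lower in KO GFPhi on each date. Csn2 stood at 2097 in WT GFPhi and 3018 in KO GFPhi, but by date at 3445 and 3088 on the first and 1414 and 2990 on the second. Ins2, insulin, was counted in 5 cells, all of them with Fezf2, and Mup1 and Rbp3 were at 0 in every cell.

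Described partners and upstream factors lay on both sides of 0, with Chd4 among the lower genes. Chd4 stood at 175 CPM in WT GFPhi and at 49.5, 48.8 and 59.5 in the other groups (WT GFPlo first, then the KO), and its mean correlation was -0.23, below the 5th percentile of -0.18, and -0.15 with the sort date removed, below the percentile of -0.14 computed the same way. It ranked 5312th of 5419 genes, and in WT GFPhi alone its correlation was 0.01. Of 13 genes of Chd4 and NuRD, 11 could be correlated, 5 above and 6 below 0, from -0.23 (Chd4) to 0.12 (Mta3). In KO GFPhi against WT GFPhi 2 of these 13 were higher and 2 lower by at least 1.5-fold (28.4% and 35.4% of all genes). Of the TNF receptors and NF-kB genes, 6 of 10 were above 0, from -0.08 (Chuk) to 0.22 (Tnfrsf11a, the receptor RANK), against 53.2% of all 5419 genes above 0. Tnfrsf11a lay just above the 95th percentile, and was at 0.12 with the sort date removed. In KO GFPhi against WT GFPhi 5 of 13 were higher and 3 lower, against the same 28.4% and 35.4%. Birc2, Tnfrsf11a, Birc3 and Cd40, those with most counts, were found in 175, 160, 154 and 149 cells. Among the Groucho corepressors, through which Fezf2 acts in neurons, 3 of 4 were above 0, and none exceeded the 0.11 of Aes.

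Genes that go with Fezf2 in cortical neurons were mostly found in few cells. Of 10 such genes, 7 were found in 20 to 60 cells, 2 in 2 cells each and 1 in none. Sox5, a factor of deep-layer neurons, was found in 60 cells, 53 of them with Fezf2, and was the 1 that could be correlated, at -0.11. Ldb2 was found in 46 cells, 39 of them with Fezf2. Fezf1, the closest relative of Fezf2, had 10 counts in 2 WT GFPlo cells, both of them with Fezf2, and Slc17a7, a glutamate transporter of cortical neurons, was at 0.

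Of 12 genes of epithelial maturation that could be correlated, 9 were above 0, against 53.2% of all genes, with a median of 0.14 and 2 of at least 0.3: Ubd, a ubiquitin-like protein induced by inflammatory cytokines, at 0.38, and Cd74, the invariant chain of MHC class II, at 0.37. With the sort date removed Ubd and Cd74 were at 0.27 and 0.20, and the list's median was 0.08. H2-Aa was at 0.27 and H2-Eb1 at -0.09, so genes of the same antigen-presentation pathway differed in sign.

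Cytometer readings of the same cells were set beside Fezf2. GFP brightness had a mean correlation with Fezf2 per cell of 0.32 within groups, from 0.19 in WT GFPhi and KO GFPhi to 0.58 in KO GFPlo, and of 0.16 with the sort date removed. Surface MHC class II stood at 0.11 and 0.13. Forward scatter was at -0.31 and Ly51 at -0.33, but with the sort date removed they were -0.07 and 0.10. Within KO GFPlo, the brighter cells by GFP held more Fezf2 than the dimmer on each date, 1405 against 524 CPM in 11 cells each on the first and 334 against 78.2 in 15 cells each on the second. In WT GFPlo the brighter 9 stood at 765 and the dimmer 9 at 450 on the first date, but with medians per cell of 80.0 and 253, and the second date gave 85.0 and 85.9. In GFPhi cells the brighter were lower on the first date, at 1366 against 1691 in WT and 594 against 962 in KO, and higher on the second, at 563 against 495 and 549 against 359.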

How the data were processed

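Whole-number counts per gene and cell were used as the authors deposited them, without normalization. The submitters' processing notes name mm10 as the genome and HTSeq, SAMtools 0.1.19, Picard 1.79 and TopHat2 or TopHat as tools, with no role or order. Whether molecular identifiers were collapsed is not given in the sources used here, so counts are called tags. Per the file headers, the deposited metadata give flow cytometer intensity in arbitrary units and a sort date for each cell, and per the labels' protocols RNA was primed with oligo-dT and amplified by in vitro transcription. All 200 cells entered, unfiltered and with no removal of doublets. There were 0 pairs of identical cells and 0 columns without a sample. The total of a cell was 29106.5 counts at the median, from 2429 to 370365.

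Levels are the summed Fezf2 counts of a group's cells over the summed totals (counts per 1000000, CPM). Levels carry exact Poisson, ratios exact conditional binomial and shares Clopper-Pearson intervals at 95%. Intervals of levels and ratios, and limits, cover counting error of tags only, and copies of a molecule are not independent. Intervals of shares treat the cells as independent. Comparisons over all genes used genes with at least 20 counts in the 2 groups, with 0.5 added to each sum, and a gene was called at 1.5-fold. Partial Spearman correlations per cell, on ranks of CPM given the rank of the log10 total, were computed in each group and averaged over the 4 groups. The 10 highest and 5 lowest genes of the same sign in all groups, found in at least 20% of the cells of each, were named, leaving out gene models, pseudogenes and ribosomal protein genes. Of the 5 lowest, 1 is not reported here. All Fezf2 antigens, Aire antigens and NuRD genes could be named, and of other lists the 4 members with most counts. Ubd, Chuk, Epcam, Krt5, Krt14, Krt17, Ly6d, Cd3e, Ptcra, Fezf1, Sox5, Slc17a7, Krt1 and Lor were named after their values were seen. The members and lists were chosen with earlier results of these data known. Replicate numbers only name cells and pair nothing. Ratios and correlations were first tested on simulated counts. Python 3.11.15, scipy 1.17.1 and, for TMM factors only, edgeR 4.0.16 were used, and positions came from GENCODE M21. Alternatives were TMM and median-of-ratios factors, each date, primer kind and pool, thinning to 5000, 13300 (near the 20th percentile of the cells' totals, set with the totals known) or 25000 counts, at least 2 counts, and leukocyte-marked cells or the cell with most counts left out. Chosen after seeing the data were a Mantel-Haenszel ratio over dates, a stricter list of the 12 leukocyte genes found in under 50% of cells, date as a covariate, marked cells left out within each date, and 100 repeats of the draw of 13300 counts.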

Additional observations from a re-analysis of the deposited data

Results flagged for a closer look

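Between KO and WT, Fezf2 differed in opposite directions in the GFPhi and GFPlo gates over both dates and on each date, but not under every setting. The log2 ratio of KO to WT was -0.69 in GFPhi and 0.36 in GFPlo over both dates, -0.98 and 0.51 on the first date, and -0.24 and 1.10 on the second. Both gates had the same sign with umi primers, at 1.65 and 1.70, and without pool 5, at -0.44 and -0.089. Between GFPhi and GFPlo, the genotypes differed on the first date, with a log2 ratio of 1.25 in WT and -0.25 in KO. Each group is 1 sample, so these differences between contrasts were not tested.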

How the results depend on the processing

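Values are log2 ratios of Fezf2 levels unless a share is named. No paired analysis was possible because replicate numbers only name cells and the results come from no test. The library pools, which hold cells of several groups, gave the counts of direction within pools. TMM or median-of-ratios factors, means per cell, and leaving out the 40 cells of lowest total kept all 4 ratios within their counting intervals. KO against WT in GFPhi (-0.69) was -0.98 and -0.24 on the first and second date, -0.93 with ls and 1.65 with umi primers (47 cells), -0.99 without leukocyte-marked cells (-0.96 and -0.55 by date), -0.94 with the stricter list, -0.93 without the cell with most counts, and -0.85 to -0.44 without 1 pool. KO against WT in GFPlo (0.36) was 0.51 and 1.10 by date, 1.70 with umi primers, 0.80 without marked cells (1.0 and 1.38 by date), 0.66 with the stricter list, 0.86 without the top cell, 0.62 by Mantel-Haenszel, and -0.089 to 0.83 without 1 pool; its sign turned without pool 5. GFPhi against GFPlo in WT (1.28) was 2.60 on the second date, 2.02 there without marked cells, 1.16 with the stricter list, 1.15 without the top cell, 1.56 by Mantel-Haenszel, and 1.10 to 1.67 without 1 pool. In KO (0.23) it was -0.25 and 1.25 by date, 0.059 with ls and 1.32 with umi primers, -0.62 without marked cells (-0.73 and 0.090 by date), -0.45 with the stricter list, -0.0064 without the top cell, 0.36 by Mantel-Haenszel, and 0.061 to 0.75 without 1 pool. The share of cells with Fezf2 in WT GFPhi (90.2%) was 75% thinned to 5000 counts and 78.6% with umi primers. In WT GFPlo (74.4%) it was 43.6% and 55.2% thinned to 5000 and, in 1 draw, 13300, 53.8% at 2 counts or more, 88.9% on the first date and 45.5% with umi primers. In KO GFPhi (97.9%) it was 72.9% thinned to 5000, and 100% on the first date and with umi primers. In KO GFPlo (73.1%) it was 54.9% thinned to 5000, 95.5% and 56.7% by date, 58.3% with umi primers and 90.3% without marked cells. Among cells with Aire it was 100% on the first date in KO GFPhi (97.7%), and 100% and 64.7% by date and 95.8% without marked cells in KO GFPlo (82.9%). The mean correlation of Fezf2 with Aire (0.25) was -0.10 on the first date. The causes were not tested. Depth limits what an absent count means, since the deepest cell without Fezf2 still allows 17.2 CPM.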

Other observations

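Genes of other epithelial fates were found in cells with and without Fezf2. Of the late medullary list (genes of cornified epithelium), Dsg1a was found in 127 cells, 119 of them with Fezf2, and Krt77 in 38, 35 of them with Fezf2. Spink5, a protease inhibitor of skin, was found in 30 cells, of which 29 held Fezf2, and Krt1 and Lor were at 0. Of the tuft cell list, Pou2f3, the factor that specifies these cells, was found in 55 cells, of which 53 held Fezf2, and Dclk1 in 69, of which 62 did. Of the cortical epithelial list, Ccl25, a chemokine that attracts thymocytes, was found in 110 cells, 102 of them with Fezf2, and stood at 1307 CPM in WT GFPlo, 514 in WT GFPhi, 322 in KO GFPhi and 72.0 in KO GFPlo. Of the WT GFPlo counts 80.8% came from 1 cell, and without it the level was 290, below WT GFPhi. Fezf2 was found in 84.5% of all cells, and deeper cells hold more genes of any kind, so these counts are a description.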
